A study of Mus musculus with 6 samples.

Results

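The genes described here are 50 genes of mitosis and chromosome segregation, chosen by name: the cyclins and kinases that drive mitosis, the spindle, the centromere and kinetochore, the checkpoint, the condensed chromosome and the cytokinesis machinery. A gene entered if its mean was at least 3 over the 6 libraries, and all 50 did, out of 18766 genes that passed the same minimum. Their means ran from 8.39 to 14.85, so none lay near that minimum. The libraries were total RNA from Kit-positive mouse bone marrow cells that carried a lentivirus for overexpression of MLLT3. The protein was wild type in 1 group (WT, n = 3) and held the changes K63E and K67E in the other (DM, n = 3). Cells of both groups were sorted and then kept in methylcellulose for 8 days. The medium held 4-hydroxytamoxifen (200 nM), given to delete the endogenous Mllt3 gene, Flt3L (10 ng/mL) and further cytokines, among them EPO, SCF, GM-CSF, IL-3, IL-6 and IL-11 (20 ng/mL each). The labels name no Cre driver, mouse strain or age, and all 6 libraries stand in batch 1. They do not say whether replicates came from separate animals, so the p-values measure the spread between these libraries, which may be technical. The deposited values are regularized logarithms (rlog, in log2 units), which adjust for library size and pull weakly measured genes toward their mean, and they hold no counts, so the depth is unknown.

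Entry into mitosis is driven by the kinase CDK1 bound to its A and B cyclins. The chromosomes are then condensed by condensin, attached through their kinetochores to a spindle built by motors and kinases, and held together until the anaphase promoting complex with CDC20 releases separase. Most of these genes are transcribed only in late S, G2 and M phase, and their RNA level in a culture is commonly read as a sign of how many cells are dividing. In bone marrow, divisions are frequent in committed progenitors and cease as granulocytes and macrophages mature. Bulk RNA does not tell fewer cells in G2 and M phase from less of these RNAs per dividing cell.

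Mllt3 itself, which is both the gene to be deleted and the gene supplied, had rlog values of 12.87, 12.6 and 12.44 across WT replicates 1 to 3, against 12.44, 12.03 and 11.99 across DM replicates 1 to 3 (difference -0.48, SE 0.137, limma adjusted p 0.0448). That call was lost in 6 of 12 alternative analyses, among them those without WT replicate 1 or 2 or DM replicate 2 or 3, and the values do not separate the vector's RNA from that of the endogenous gene. Kit, the marker used to select the cells, ran from 14.29 to 14.9 over all 6 libraries. The library medians over tested genes ran from 8.03 to 8.11.

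The mitosis genes were lower in DM than in WT almost without exception. Of the 50 members, 45 fell at an adjusted p under 0.05 (limma, Benjamini-Hochberg adjustment over all 18766 genes) and 0 rose. Over all tested genes 4.71% were called lower, 9.2% higher and 13.9% in either direction. The lower calls were thus 33.9% of all calls, and 48.7% of them after quantile normalization, which called 49 members lower. The median difference over the members was -0.40 on the log2 scale, which puts DM at 75.9% of WT, while the median over all tested genes was 0.01. Between the quartiles the members' differences ran from -0.43 to -0.34, a narrow range. The extremes were -0.68 for Kif15 and 0.09 for Pttg1. For 49 members all 3 DM libraries lay below all 3 WT libraries, a separation that 14.3% of all tested genes showed in this direction.

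The members also followed each other from library to library. The median deviation of the 50 members from their 6-library means was 0.25, 0.24 and 0.11 across WT replicates 1 to 3, against -0.12, -0.21 and -0.25 across DM replicates 1 to 3. WT replicate 3 was the lowest WT library for 47 of the 50 members, and DM replicate 1 the highest DM library for 46. The 2 libraries nearest to each other across the groups were therefore the same ones for nearly every member. This order was not particular to the members, and its share over all tested genes was not counted. For 15 anaphase promoting complex genes, described below, the median deviations were 0.02, 0.04 and -0.09 in WT, and 0.03, 0.01 and -0.01 in DM. WT replicate 3 also had the lowest library median over tested genes (8.03). The spread within groups was ordinary: its median SD was 0.0868 for the members and 0.0907 for the 8842 tested genes in the same range of levels.

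**Figure D1:**
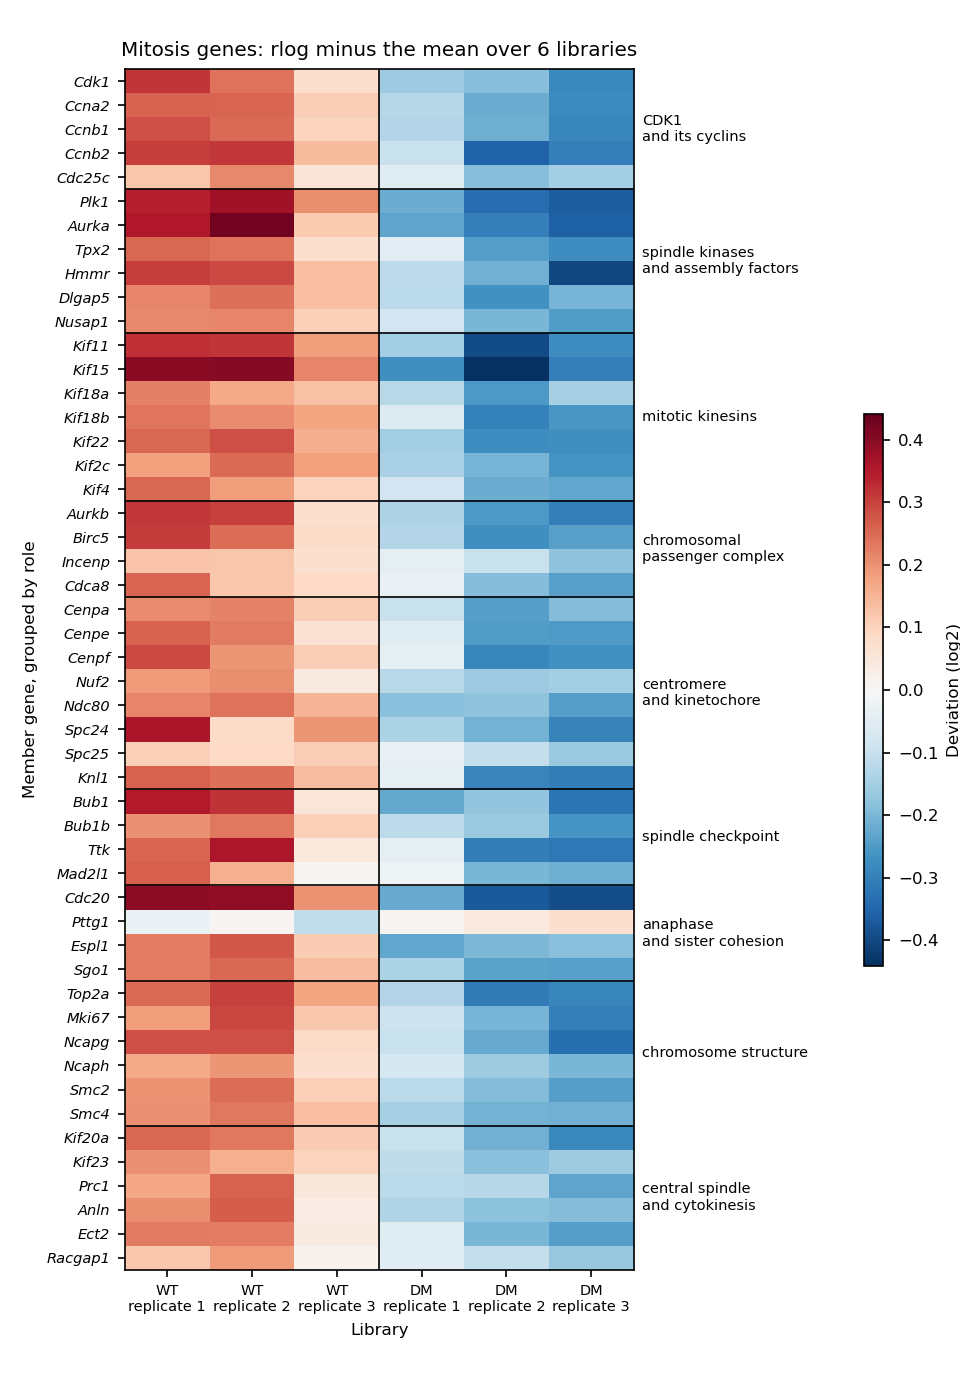
Deviation of each member's rlog value from its mean over the 6 libraries (log2; red above, blue below), with genes in rows grouped by role and libraries in columns. The WT columns are red and the DM columns blue in every row but Pttg1, and WT replicate 3 (median deviation 0.11) and DM replicate 1 (-0.12) are the palest.

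The count of calls varied with the library left out. It was 27 when DM replicate 2 was left out, 29 when WT replicate 1 was, 30 when DM replicate 3 was, and 44 to 47 with any other library left out, while the median difference stayed between -0.44 and -0.37. In those fits 5.96%, 6.31% and 8.19% of all genes were called.

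A class of promoter elements was looked up because it is known to be shared by many mitosis genes. Any link between these elements and the differences was not tested. The cell cycle genes homology region (CHR), the site of the MuvB complexes that repress these genes in resting cells and activate them with B-Myb and FOXM1, was searched as TTTGAA or TTTAAA. The box bound by the factor NF-Y was searched as CCAAT. Both strands were read over the 250 bases upstream of the transcription start in the RefSeq promoters of GRCm38.p6, with the first listed window per gene. The windows also hold 50 bases after the start, which were not searched, so an element there would be missed. Of the 50 members, 41 were matched. The 5 promoters below belong to the members with the largest differences among those that hold both elements. They are Cdc20 (chr4:118437344-118437493, minus strand), Plk1 (chr7:122159285-122159434, plus strand), Kif11 (chr19:37376232-37376381, plus strand), Ccnb2 (chr9:70421555-70421804, minus strand) and Top2a (chr11:99024190-99024339, minus strand). Each ends at the base before the start, written 5′ to 3′ on the gene's strand, with every match in capitals (TTCAAA and ATTGG are matches read on the other strand).
Cdc20: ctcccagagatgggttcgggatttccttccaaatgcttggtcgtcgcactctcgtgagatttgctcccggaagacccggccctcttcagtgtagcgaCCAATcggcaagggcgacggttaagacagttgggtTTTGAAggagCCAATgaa
Plk1: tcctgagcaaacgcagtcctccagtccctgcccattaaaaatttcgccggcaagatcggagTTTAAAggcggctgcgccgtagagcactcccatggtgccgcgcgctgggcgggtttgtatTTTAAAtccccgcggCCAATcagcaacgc
Kif11: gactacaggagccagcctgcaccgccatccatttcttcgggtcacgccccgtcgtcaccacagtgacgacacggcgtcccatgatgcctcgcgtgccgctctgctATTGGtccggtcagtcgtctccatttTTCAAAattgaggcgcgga
Ccnb2: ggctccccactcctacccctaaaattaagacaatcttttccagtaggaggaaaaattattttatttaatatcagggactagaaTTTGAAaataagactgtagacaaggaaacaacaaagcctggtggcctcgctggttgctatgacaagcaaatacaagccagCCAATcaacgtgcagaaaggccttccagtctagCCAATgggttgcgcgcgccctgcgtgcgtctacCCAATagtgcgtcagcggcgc
Top2a: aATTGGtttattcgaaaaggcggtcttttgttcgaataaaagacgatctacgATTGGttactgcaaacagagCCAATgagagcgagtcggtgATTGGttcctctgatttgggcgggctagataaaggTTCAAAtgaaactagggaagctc

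The stretches shown are the last 150 bases before the start, and the whole 250 for Ccnb2, whose CHR match lies farther out. With positions counted from the start, the nearest CHR match was centred at -15 in Cdc20, -16 in Kif11 and -20 in Top2a, and the next CCAAT match upstream of it at -50.5, -42.5 and -55.5. In Plk1 the order was the other way round, with CHR at -26 and CCAAT at -11.5. In Ccnb2 the CHR match was centred at -164, and the 3 CCAAT matches at -84.5, -51.5 and -18.5. Kif15, the member with the largest difference, held CHR matches and no CCAAT match. Over the matched members, 18 of 41 (43.9%) held a CHR match, against 18.3% of the 12349 tested genes with a window. A CCAAT match was held by 28 (68.3%), against 35.9%, and both by 15 (36.6%), against 7.04%. The same windows were read for related lists. Of 58 other mitosis genes with a window, 41.4% held a CHR match, 63.8% a CCAAT match and 31.0% both. Of 33 S phase genes, 21.2% held a CHR match, 63.6% a CCAAT match and 12.1% both. In the last 150 bases the CHR share was 36.6% of the matched members and 9.62% of the tested genes with a window. All 15 members with both elements were called lower (median difference -0.42), as were 8 of the 10 with neither (median -0.34). These are matches of letters in a window and not measured binding sites. For Cdca8, Kif2c, Kif4 and Pttg1 the RefSeq start lay 2394, 3867, 328 and 270 bases inside the gene as GENCODE draws it, so their windows may miss the promoter in use.

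**Figure D2:**
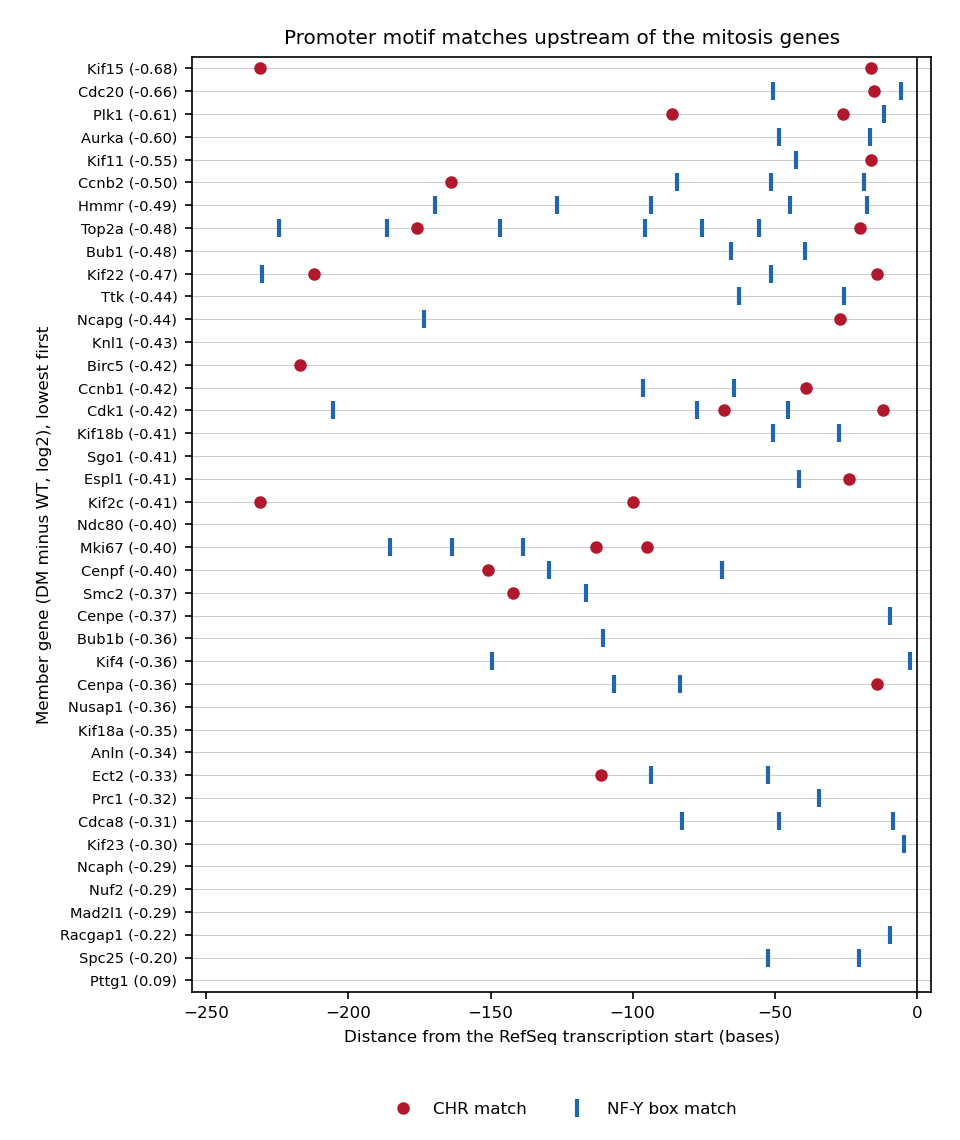
Position of each CHR match (red circles) and each match to the NF-Y box (blue bars) in the 250 bases upstream of the RefSeq start, for the 41 matched members ordered by their DM minus WT difference (log2, in parentheses). Of the 18 members with a CHR match, 11 have one in the last 50 bases, and the median NF-Y box match is centred at -62.5.

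All 5 genes of the CDK1 engine fell. Ccnb2, a B cyclin that activates CDK1, had rlog values of 10.88, 10.88 and 10.71 in WT, against 10.48, 10.22 and 10.27 in DM (difference -0.50, SE 0.086, limma adjusted p 0.00688). Ccnb1, the other mitotic B cyclin, had 10.89, 10.86 and 10.7 in WT, against 10.47, 10.39 and 10.32 in DM (-0.42, SE 0.0758, adjusted p 0.00791). For both cyclins the groups were apart, with WT replicate 3 the lowest WT library. Cdk1 itself (-0.42, adjusted p 0.00896) and Ccna2 (-0.42, adjusted p 0.0081), the cyclin of S phase and early mitosis, fell by nearly the same amount. Cdc25c, a phosphatase that switches CDK1 on, had the smallest difference of the group (-0.26, adjusted p 0.0413).

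All 6 spindle kinases and assembly factors fell. Plk1, the kinase of centrosome maturation and mitotic entry, had values of 11.19, 11.22 and 11.05 in WT, against 10.63, 10.51 and 10.48 in DM (difference -0.61, SE 0.0739, limma adjusted p 0.00159), so that DM stood at 65.4% of WT. Aurka, the Aurora kinase of the spindle poles, had 10.3, 10.38 and 10.06 in WT, against 9.72, 9.65 and 9.59 in DM (-0.60, SE 0.0878, adjusted p 0.004). The lowest WT library lay 0.42 above the highest DM library for Plk1 and 0.35 for Aurka. Tpx2, the microtubule protein that activates Aurora A at the spindle, fell less (-0.38, adjusted p 0.0171). Hmmr and Dlgap5, spindle proteins that stabilize microtubules, fell by 0.49 (adjusted p 0.0081) and 0.40 (adjusted p 0.00728). The smallest difference here was that of Nusap1, which bundles spindle microtubules (-0.36, adjusted p 0.0114).

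All 7 mitotic kinesins fell, and the group held the largest difference among the 50 members. Kif15, a plus-end motor that helps keep the spindle bipolar, had values of 11.19, 11.19 and 11.01 in WT, against 10.52, 10.35 and 10.49 in DM (difference -0.68, SE 0.0789, limma adjusted p 0.00135), which is 62.5% of WT. Kif11 (Eg5), the motor that pushes the spindle poles apart and acts beside Kif15, had 11.79, 11.78 and 11.65 in WT, against 11.31, 11.07 and 11.19 in DM (-0.55, SE 0.0808, adjusted p 0.00403). In both, DM replicate 2 was the lowest library. The differences of the other kinesins ran from -0.47 for the chromokinesin Kif22 (adjusted p 0.00411) to -0.35 for Kif18a, which limits chromosome oscillation at the metaphase plate (adjusted p 0.0112). The depolymerase Kif2c (-0.41), Kif18b (-0.41) and the chromokinesin Kif4 (-0.36) lay between.

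In the chromosomal passenger complex, which corrects faulty attachments of chromosomes to the spindle, 3 of 4 genes fell. Aurkb, its kinase, had values of 10.2, 10.19 and 9.96 in WT, against 9.75, 9.63 and 9.59 in DM (difference -0.46, SE 0.084, limma adjusted p 0.00851). Birc5 (survivin) had 10.63, 10.57 and 10.41 in WT, against 10.2, 10.05 and 10.08 in DM (-0.42, SE 0.0783, adjusted p 0.00883). Cdca8 (borealin) fell by 0.31 (adjusted p 0.0295). Incenp, the scaffold that holds the kinase, had the smallest difference (-0.21, adjusted p 0.0639, from 0.00622 to 0.225 over the alternatives), although its 3 DM values of 11.74 to 11.87 all lay below its 3 WT values of 11.99 to 12.04. The complex was thus not uniform in size: the kinase differed by more than its scaffold, a contrast that was not itself tested.

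Of the 8 centromere and kinetochore genes, 7 fell. Spc24, a subunit of the NDC80 complex that grips microtubules, had values of 9.54, 9.26 and 9.38 in WT, against 9.04, 8.97 and 8.88 in DM (difference -0.43, SE 0.0846, limma adjusted p 0.011). Knl1, the outer kinetochore scaffold for the checkpoint proteins, had 11.19, 11.17 and 11.06 in WT, against 10.88, 10.64 and 10.62 in DM (-0.43, SE 0.0844, adjusted p 0.011). Spc24 was one of the 3 members for which WT replicate 3 was not the lowest WT library. The 4 subunits of the NDC80 complex differed in size, from Spc24 and Ndc80 (-0.40, adjusted p 0.0054) to Nuf2 (-0.29, adjusted p 0.0221) and Spc25 (-0.20, adjusted p 0.0698, from 0.0223 to 0.233 over the alternatives). Cenpa, the histone variant that marks the centromere, fell by 0.36 (adjusted p 0.0103). The large kinetochore proteins Cenpe (-0.37, adjusted p 0.0185) and Cenpf (-0.40, adjusted p 0.0157) fell as well.

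In the spindle checkpoint, which delays anaphase until every kinetochore is attached, 3 of 4 genes fell. Bub1, a checkpoint kinase, had values of 10.57, 10.54 and 10.27 in WT, against 9.99, 10.04 and 9.9 in DM (difference -0.48, SE 0.0892, limma adjusted p 0.00896). Ttk (MPS1), the kinase at the top of the checkpoint, had 9.02, 9.12 and 8.81 in WT, against 8.72, 8.46 and 8.45 in DM (-0.44, SE 0.102, adjusted p 0.0197). For Ttk the gap between the groups was narrow, at 0.09 between WT replicate 3 and DM replicate 1. Bub1b (BUBR1), part of the inhibitor of CDC20, fell by 0.36 (adjusted p 0.0105). Mad2l1 (MAD2), which binds CDC20 directly, had a difference of -0.29 (adjusted p 0.0515, from 0.00912 to 0.183 over the alternatives), and its gap was 0.03.

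The genes of anaphase onset gave both the second largest fall and the 1 exception. Cdc20, the activator of the anaphase promoting complex, had values of 10.36, 10.36 and 10.17 in WT, against 9.74, 9.6 and 9.58 in DM (difference -0.66, SE 0.0799, limma adjusted p 0.00166), or 63.5% of WT. Sgo1 (shugoshin), which protects cohesion at the centromere, had 9.34, 9.37 and 9.25 in WT, against 8.98, 8.88 and 8.87 in DM (-0.41, SE 0.068, adjusted p 0.00626). Espl1, the separase that cuts cohesin, fell by the same 0.41 (adjusted p 0.00629). Pttg1 (securin), the inhibitor of separase and a substrate of the same complex, had 8.47, 8.51 and 8.39 in WT, against 8.51, 8.54 and 8.57 in DM. Its DM values were all above its WT values, by a small margin, and the difference of 0.09 (95% interval -0.06 to 0.24, limma adjusted p 0.407) did not pass the test. The interval excludes the median difference of the members. The sign held in all 12 alternatives, with differences from 0.04 to 0.11. Pttg1 lies on chromosome 11 (43420250 to 43426251, minus strand, GRCm38), and no overlapping gene is annotated there.

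All 6 genes of chromosome structure fell. Top2a, the topoisomerase that untangles sister chromatids, had values of 13.67, 13.72 and 13.59 in WT, against 13.29, 13.11 and 13.13 in DM (difference -0.48, SE 0.08, limma adjusted p 0.00626). Ncapg, a subunit of condensin I, had 10.5, 10.5 and 10.3 in WT, against 10.12, 9.99 and 9.89 in DM (-0.44, SE 0.0854, adjusted p 0.0106). Mki67, which coats mitotic chromosomes and is the usual stain for dividing cells, had 15.03, 15.14 and 14.97 in WT, against 14.76, 14.64 and 14.55 in DM (-0.40, adjusted p 0.0196). The groups were apart for all 3. The condensin ATPases Smc2 (-0.37, adjusted p 0.00988) and Smc4 (-0.38, adjusted p 0.00807) were close to each other, and Ncaph, the subunit that links them, had the smallest difference (-0.29, adjusted p 0.021).

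Of the 6 genes of the central spindle and cytokinesis, 5 fell, and their median of -0.33 was the nearest to 0 among the 9 groups. Kif20a, a motor of the central spindle, had values of 11.03, 11.01 and 10.89 in WT, against 10.68, 10.57 and 10.49 in DM (difference -0.40, SE 0.0745, limma adjusted p 0.00928). Anln (anillin), which organizes the contractile ring, had 10.82, 10.88 and 10.65 in WT, against 10.48, 10.43 and 10.42 in DM (-0.34, SE 0.0756, adjusted p 0.0172). Ect2, the exchange factor that switches on RhoA at the cleavage furrow, fell by 0.33 (adjusted p 0.0241). Prc1 (-0.32, adjusted p 0.0217), which crosslinks central spindle microtubules, and Kif23 (-0.30, adjusted p 0.0139), the motor of the centralspindlin complex, also fell. Racgap1, the partner of Kif23 in that complex, had the smallest difference (-0.22, adjusted p 0.073, from 0.00379 to 0.231 over the alternatives).

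**Figure D3:**
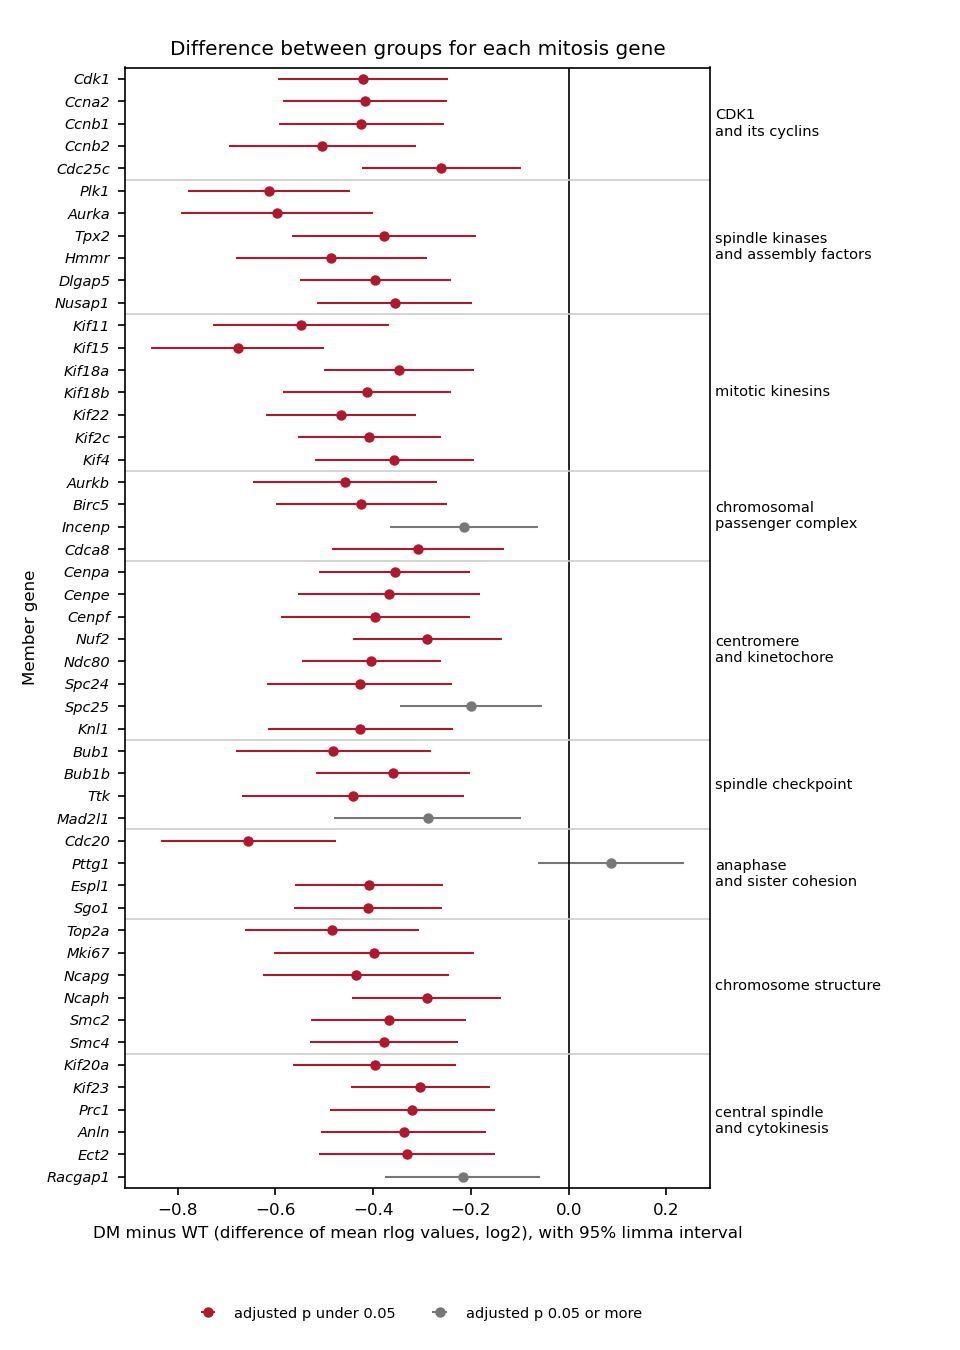
DM minus WT difference of mean rlog values (log2, points) with its 95% limma interval (lines) for each of the 50 members, grouped by role; red marks an adjusted p under 0.05 and grey the 5 genes above it. The intervals of all members but Pttg1 lie below 0, and the differences of these members run from -0.68 for Kif15 to -0.20 for Spc25. The interval of Spc25 runs from -0.35 to -0.06.

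Beyond these calls, 27 of the 45 held in all 12 alternatives. The other 18 were lost without DM replicate 2 and most of them also without WT replicate 1 or DM replicate 3: Cdc25c, Tpx2, Nusap1, Kif18a, Kif4, Cdca8, Cenpa, Cenpe, Cenpf, Nuf2, Knl1, Ttk, Mki67, Ncaph, Anln, Ect2, Kif23 and Prc1. In the analyses that rescaled the libraries, 49 members were called lower, Incenp, Spc25, Mad2l1 and Racgap1 among them. Annotated exons of a gene on the opposite strand overlap those of 12 members, and the sources used here do not say whether reads were counted by strand. For Cdc20 the shared stretch is 53 bases with Elovl1 and for Cdca8 232 bases with 9930104L06Rik. Both neighbours were higher in DM (0.28, limma adjusted p 0.0419, and 0.25, adjusted p 0.0387), the opposite direction to the members. The other neighbours of this kind were not called or not tested. Kif20a shares 1271 bases with Cdc23 (-0.07, adjusted p 0.545), and Nusap1 172 bases with Oip5 (-0.21, adjusted p 0.16). The effect of these overlaps on the members was not tested. Pseudogenes named after Ccnb1, Ccnb2, Kif22 and Kif4 stand in the table, so reads may be split between those copies.

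The wider mitosis programme, read from 70 further genes, moved the same way. Of these, 43 fell and 0 rose, with a median difference of -0.29. The largest were Hjurp, the chaperone that deposits CENP-A (-0.57, limma adjusted p 0.00251), the cytokinesis kinase Cit (-0.56, adjusted p 0.00394) and Depdc1b (-0.54, adjusted p 0.00187). The count was 27 without the filter on the mean, 22 without DM replicate 2, 21 without DM replicate 3 and 19 without WT replicate 1. In the main fit 66 of the 70 had a lower mean in DM. Gas2l3 was the 1 gene with all DM values above its WT values (0.22, limma adjusted p 0.105). Without WT replicate 2, 1 gene of this list was called higher. A further list held 15 genes of the anaphase promoting complex, namely its subunits and its activator Fzr1, which are expressed through the whole cycle. Of these 0 were called by limma (0 also at an unadjusted p under 0.05), with differences from -0.14 to 0.14. After quantile normalization 3 of them were called lower, and the median moved from 0.01 to -0.08. Of 12 genes of cohesin and its regulators 1 was called, Esco2, the acetyltransferase that acts on cohesin in S phase (-0.39, adjusted p 0.0118), and it was lost without WT replicate 1. Across all tested genes 4.71% were called lower, and 6.88% after quantile normalization, so this 1 call is not read as a result about cohesin. The cohesin count was 6 after quantile normalization (median -0.17, against -0.05), 4 after centring, 4 with a replicate block, 3 without the trend, and 2 with a mean of at least 5 or without WT replicate 3. The contrast between these lists was not itself tested.

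**Figure D4:**
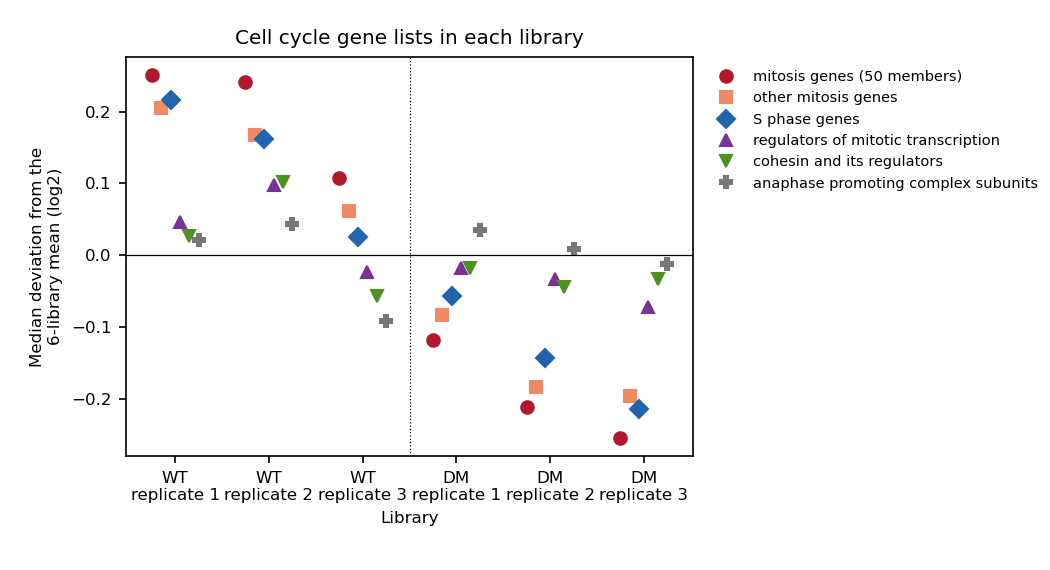
Median deviation of each gene list from its 6-library means (log2, vertical axis) in each library (horizontal axis), for the 50 mitosis genes and 5 related lists. The mitosis genes fall from between 0.11 and 0.25 in WT to between -0.25 and -0.12 in DM, while the anaphase promoting complex stays between -0.09 and 0.04 in all 6 libraries.

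Among 23 factors that regulate transcription of mitosis genes, 5 fell and 0 rose, against 4.71% and 9.2% of all tested genes. Mybl2 (B-Myb), the MuvB partner that carries these genes through S and G2 phase, had values of 10.44, 10.41 and 10.13 in WT, against 9.71, 9.59 and 9.56 in DM (difference -0.71, SE 0.0914, limma adjusted p 0.00219). That difference exceeded those of all 50 members. Foxm1, the forkhead factor that binds the same complex in G2 phase, had 10.51, 10.63 and 10.5 in WT, against 10.36, 10.32 and 10.19 in DM (-0.26, SE 0.073, adjusted p 0.0421). Its call was lost in 6 of 12 alternatives, among them those without any library other than WT replicate 3. Tfdp1 (-0.53, adjusted p 0.00248), the dimer partner of E2F factors, E2f2 (-0.46, adjusted p 0.0225) and the atypical repressor E2f8 (-0.41, adjusted p 0.00728) fell too. The call of E2f2 needed both DM replicate 1 and DM replicate 3. The number of calls was 11 lower and 1 higher after quantile normalization, 8 lower after centring, and 3 lower without DM replicate 1 or 3. Higher calls were also made with a mean of at least 5, without the trend or without WT replicate 2 (1 each), and with a replicate block (2). All DM values lay below all WT values for 8 of the 23 factors and above them for 5. E2f1 (-0.03, adjusted p 0.824) and the MuvB subunit Lin9 (-0.18, adjusted p 0.0871) did not pass the test.

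The 41 S phase genes, which are transcribed before the mitosis genes in each cycle, included 19 that fell and 0 that rose, with a median difference of -0.28. Dut, which removes dUTP (-0.70, limma adjusted p 0.00376), and the replication factors Cdc6 (-0.60, adjusted p 0.00112) and Cdc45 (-0.57, adjusted p 0.00228) had the largest differences. Pcna, the sliding clamp, was at -0.01 (95% interval -0.19 to 0.16, adjusted p 0.923), picked out after its value was seen. The S phase count was 10 without the filter on the mean, 9 without DM replicate 2, and 7 without DM replicate 3 or without WT replicate 1. Per library, the list had median deviations of 0.22, 0.16 and 0.03 in WT, against -0.06, -0.14 and -0.21 in DM, in the same order as the mitosis genes. Of 13 genes of G1 cyclins, their kinases and CDK inhibitors, 3 rose and 2 fell. The 3 that rose were cyclin D1 (Ccnd1, 0.61, adjusted p 0.0347) and the inhibitors Cdkn1c (p57, 0.54, adjusted p 0.0221) and Cdkn1a (p21, 0.38, adjusted p 0.012). The 2 that fell were the inhibitor Cdkn2d (p19, -0.37, adjusted p 0.023) and the kinase Cdk2 (-0.28, adjusted p 0.0295). Without DM replicate 2 all 5 calls were lost, and without WT replicate 1 all but Cdkn2d. Cdkn1c and Cdk2 were also lost when DM replicate 1 or 3 was left out, Cdk2 without the filter on the mean as well, Cdkn2d with DM replicate 1 or WT replicate 3 left out, and Ccnd1 with DM replicate 3 or WT replicate 3 left out or after quantile normalization. Cdkn1a was at 0.19 after quantile normalization (adjusted p 0.0367, against 0.00284 to 0.0598 over all alternatives).

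Markers of maturing blood cells differed between the same groups, and their part in the result was not tested. All 8 early neutrophil markers fell, from -4.23 for Mpo to -0.63 for Ctsg, both granule enzymes of promyelocytes, and their summed level, taken back to the linear scale, ran from 50226 to 91537 in WT and from 12770 to 19441 in DM. Of 10 late neutrophil markers 7 fell (316460 to 502805 in WT, 145382 to 272549 in DM), and of 6 eosinophil markers the granule proteins Epx, Prg2 and Prg3 fell (33940 to 37417 in WT, 13726 to 19326 in DM). Of 11 tested monocyte and macrophage markers 9 rose and 2, Ly6c2 and Ccr2, fell (319268 to 515079 in WT, 630920 to 813979 in DM), and the 12th, C1qa, was under the filter at 2.45 to 2.56. Summed levels follow mainly the most abundant genes of a list, whose mean rlog value reached 18.33 in this one. The early neutrophil count was 7 or 8 in all alternatives, with Ctsg lost in 4 of 12, and the 3 eosinophil calls held in all 12. The late neutrophil count ran from 5 to 9, with Ltf lost in 7 and Cxcr2 in 6 alternatives, and the number of monocyte and macrophage markers that rose from 7 to 9, with Mrc1 lost in 5 and Lyz2 in 3. The late neutrophil list was not uniform: 1 marker had all DM values above its WT values (difference 0.50) and was not called. With a mean of at least 5, with a replicate block, or without DM replicate 1 or WT replicate 2, 1 marker of that list was called higher. In DM replicate 1, 46 of the 50 mitosis genes were highest among the DM libraries. There the early neutrophil markers had the lowest median deviation (-1.49, against -1.34 and -0.92) but the highest summed level (19441, against 12770 and 18566). In WT their median deviations were 1.34, 1.37 and 1.05, lowest in replicate 3 as for the mitosis genes. Late neutrophil median deviations ran in the opposite order to the mitosis genes within each group. They were 0.11, 0.52 and 0.67 across WT replicates 1 to 3, and -0.77, -0.41 and -0.12 across DM replicates 1 to 3. How the markers relate to the mitosis genes by library was not tested.

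The remaining marker lists differed among themselves, against 4.71% of all tested genes called lower and 9.2% called higher. The few calls in these short lists are not read as results about the cell types. Of 9 tested erythroid markers 0 were called (0 of them with groups apart). All 9 had a lower mean in DM (median difference -0.30), as did 48.4% of all tested genes, and 1 was called lower without WT replicate 2. The adult globin Hba-a1 was at -1.97 in all 6 libraries. Unrelated genes such as Gm26394 and Gm25152 had the same mean of -1.97, so the Hba-a1 value is not read as a measured level. Of 8 megakaryocyte markers Gp1ba and Vwf rose, of 9 mast cell and basophil markers Hdc fell, and of 11 stem and progenitor markers Procr and Mecom rose and Myb and Flt3 fell. The call of Flt3 was lost in 9 of 11 alternatives and that of Hdc in 7 of 12, while Myb and Gp1ba were lost in 2 each and Mecom in 1. Summed levels ran from 7008 to 8723 in WT and from 5883 to 7772 in DM for the erythroid list, from 19189 to 22988 and from 23313 to 30329 for the megakaryocyte list, and from 486222 to 628173 and from 491232 to 686687 for the mast cell and basophil list. The summed stem and progenitor level ran from 32369 to 39789 in WT and from 31261 to 45105 in DM. The median deviations of the stem and progenitor list (0.18) and the mast cell and basophil list (0.32) were highest in DM replicate 1. Of 4 tested lymphoid markers Nkg7 and Cd79b fell and Il7r rose (2832 to 4473 in WT, 5158 to 5839 in DM), with Cd79b lost in 2 of 11 alternatives, while Cd3e was under the filter, at 2.65 to 2.87. Of 8 tested stromal and endothelial markers Col1a1 and Pdgfrb fell, with a summed level of 6247 to 6945 in WT and 6058 to 7189 in DM, and the call of Col1a1 was lost in 8 of 12 alternatives.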

How the data were processed

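Total RNA was sequenced from 6 libraries (3 WT, 3 DM). The authors deposited 1 table of regularized log2 values without counts, as its name and values show. The submitters' processing notes name cutadapt 2.6, STAR 2.7.3, DESeq2 1.30.0 and the build mm10. The counting tool, use of strand and annotation are not given in the sources used here. The 142699 lines, which repeat each gene with identical values, were merged into 55487 genes, and 54435 gene identifiers matched GENCODE M21 (GRCm38), which gave coordinates.

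The values were fitted with limma 3.58.1 in R 4.3.3 (lmFit, eBayes with a mean-variance trend) over genes with a mean of at least 3, DM against WT without covariates, two-sided, with Benjamini-Hochberg adjustment at 0.05. The fit was tested on simulated data. Same-numbered libraries were not treated as pairs. The members, gene lists and tests were chosen with earlier results of these data known. Under each role the 2 members with the largest differences are given by library and the member with the smallest is named, and from each further list the 3 largest called differences (for the transcription factors, all called). Genes named otherwise are the remaining members, genes that overlap members, and E2f1, Lin9, Pcna, Gas2l3, Kit and marker genes picked after their values were seen. Alternatives were no filter, a mean of at least 5, no trend, quantile normalization, centring on library medians, a replicate block, and each library left out. Promoters came from RefSeq. A marker gene and a culture component are not reported here.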

Additional observations from a re-analysis of the deposited data

How the results depend on the processing

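The direction held for 49 of the 50 members in all 12 alternatives (588 of 588 values below 0), Pttg1 being above 0 in each. The number of members called lower, 45, was 39 without the filter on the mean, 47 with a mean of at least 5 or no trend, 49 after quantile normalization or centring on library medians, and 27 to 47 when 1 library was left out. No member was called higher in any of the 12. The median difference of -0.40 was -0.49 after quantile normalization, -0.43 after centring, and -0.44 to -0.37 with 1 library left out. Over all genes 2611 were called, and 1119 (without DM replicate 2) to 3475 (without WT replicate 2) with 1 library left out, and the cause was not tested. The share of called genes that were lower was 33.9%, and 48.7% after quantile normalization.

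With the replicate number as a block, 49 members and 3742 genes were called, against 45 and 2611 without it. The same-numbered libraries' deviations correlated at 0.49, 0.12 and 0.04. The value for replicates 1 was the largest of all, while WT replicate 3 correlated more with DM replicate 2 (0.12) than with DM replicate 3. These correlations do not settle whether the numbers mark pairs, and the main fit does not take them as pairs. The share of members with a CHR match was 43.9% over 250 bases upstream and 36.6% over 150, and with both elements 36.6% and 29.3%. Depth is unknown, and the shrinkage of rlog values understates differences of weakly measured genes.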
